A study of Mus musculus with 31 samples.

Results

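Valve formation and cushion matrix genes were followed in mouse induced pluripotent stem cells (iPSCs) and in embryoid bodies grown from them. The set has 9 genes, Nfatc1, Snai1, Snai2, Twist1, Sox9, Has2, Vcan, Hapln1 and Postn, out of 18194 genes that the arrays measured. They were chosen by symbol, and the probe set brightest on average across the 31 arrays stands for each. RNA was measured on Affymetrix arrays, 1 per sample, in 4 groups. Embryoid bodies at day 11 gave 6 Nos3-/- and 9 control arrays, and undifferentiated iPSCs at day 0 gave 6 Nos3-/- and 10 control arrays. The Nos3-/- cells came from B6.129P2-Nos3tm1unc/J mice and the control cells from wild type CD1 mice, so genotype and strain cannot be told apart in any difference below. In all 4 groups the cells go back to tail-tip fibroblasts of adult males reprogrammed with Sendai virus. At day 0 they grew on inactive mouse embryonic fibroblast (MEF) feeders, whose RNA can be in these samples, and differentiation was spontaneous after aggregation in AggreWell plates. The labels do not say how many mice, clones or cultures stand behind the arrays of a group, so p-values measure the spread between arrays, which may be technical.

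Heart valves and parts of the septa arise from the endocardial cushions, swellings in which a hyaluronan-rich matrix separates the endocardium from the myocardium. Endocardial cells overlying a cushion lose their contacts, turn mesenchymal and invade this matrix, a step driven by BMP, TGF-beta and Notch signals and carried out by transcription factors of the Snail and Twist families. The invading cells then proliferate and lay down the fibrous and proteoglycan layers of the leaflets. Nos3 encodes endothelial nitric oxide synthase, and mice without it are known for malformed aortic valves and septal defects. None of the 9 genes is specific to valves: fibroblasts, cartilage and neural crest use several of them.

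Levels are log2 values from robust multi-array averaging (RMA), which can be compared between arrays for a given probe set but not between probe sets. A gene was called at a limma adjusted p under 0.05, with Benjamini-Hochberg adjustment over all 18194 genes, and ± gives the SD over arrays. The number of arrays limits the precision, and in bulk samples fewer cells of a type and less RNA per cell cannot be told apart. Array medians lay between 6.13 and 6.23. By the correlation with its own group, 5 arrays stood apart, with a median r under 0.98 (0.961 to 0.979): Nos3-/- day 11 replicate 3, control day 11 replicate 1 and Nos3-/- day 0 replicates 1, 3 and 5. Nos3 itself averaged 6.88 ± 0.14 in Nos3-/- and 7.05 ± 0.21 in control embryoid bodies, and 6.98 ± 0.18 in Nos3-/- and 6.65 ± 0.24 in control iPSCs. It was higher in Nos3-/- than in control iPSCs (0.33, adjusted p = 0.0295) and did not pass the test at day 11 (-0.17, adjusted p = 0.386), and no source used here places its probes relative to the disrupted part of the gene, so this checks nothing about the labels. Pluripotency markers averaged 10.9 in Nos3-/- and 10.3 in control embryoid bodies, against 11.7 in Nos3-/- and 11.1 in control iPSCs. Their mean was 9.84 on Nos3-/- day 0 replicate 3. It ran from 11.8 to 12.2 on the other Nos3-/- iPSC arrays and from 10.5 to 12.0 in control iPSCs. Cardiomyocyte markers averaged 7.71 in Nos3-/- and 8.25 in control embryoid bodies, against 5.75 in Nos3-/- and 5.90 in control iPSCs.

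Postn, Snai2 and Snai1 were lower in Nos3-/- than in control embryoid bodies, and no member was higher. For Postn the gap was 13.5-fold, the widest of the 9, and for Snai1 it was 1.39-fold. Of 14 measured fibroblast markers, 7 were lower and 2 higher in Nos3-/- than in control embryoid bodies. Over all 18194 genes, 962 were called lower and 802 higher. With the mean of the 14 as a covariate, the log2 differences were -2.38 for Postn, -1.44 for Snai2 and -0.44 for Snai1. Without it they were -3.76, -1.99 and -0.48. With it none of the 3 passed an adjusted p under 0.05 by limma, while all 3 had an unadjusted p under 0.05. Of all 18194 genes, 250 were called with the covariate among the day 11 arrays, against 1764 in the main fit over all 31 arrays. These fits differ in arrays as well as in the covariate, so the counts do not show what the covariate alone removed. The marker means of the genotypes overlapped little at day 11, so the covariate fit separates marker level from genotype poorly. Postn and Snai2 fell over differentiation in Nos3-/- cells and rose in control cells, and the day 11 minus day 0 changes differed between genotypes. For Snai2 the fall and the difference of the changes lay close to the threshold. Hapln1 and Vcan, which encode partners of hyaluronan in the matrix, rose strongly over differentiation in both genotypes, and their genotype differences did not pass the test on either day. The rise of Has2, the gene of the hyaluronan synthase, was called in Nos3-/- cells alone, with no called difference between genotypes. It was not called on the other Has2 probe set.

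**Figure D1:**
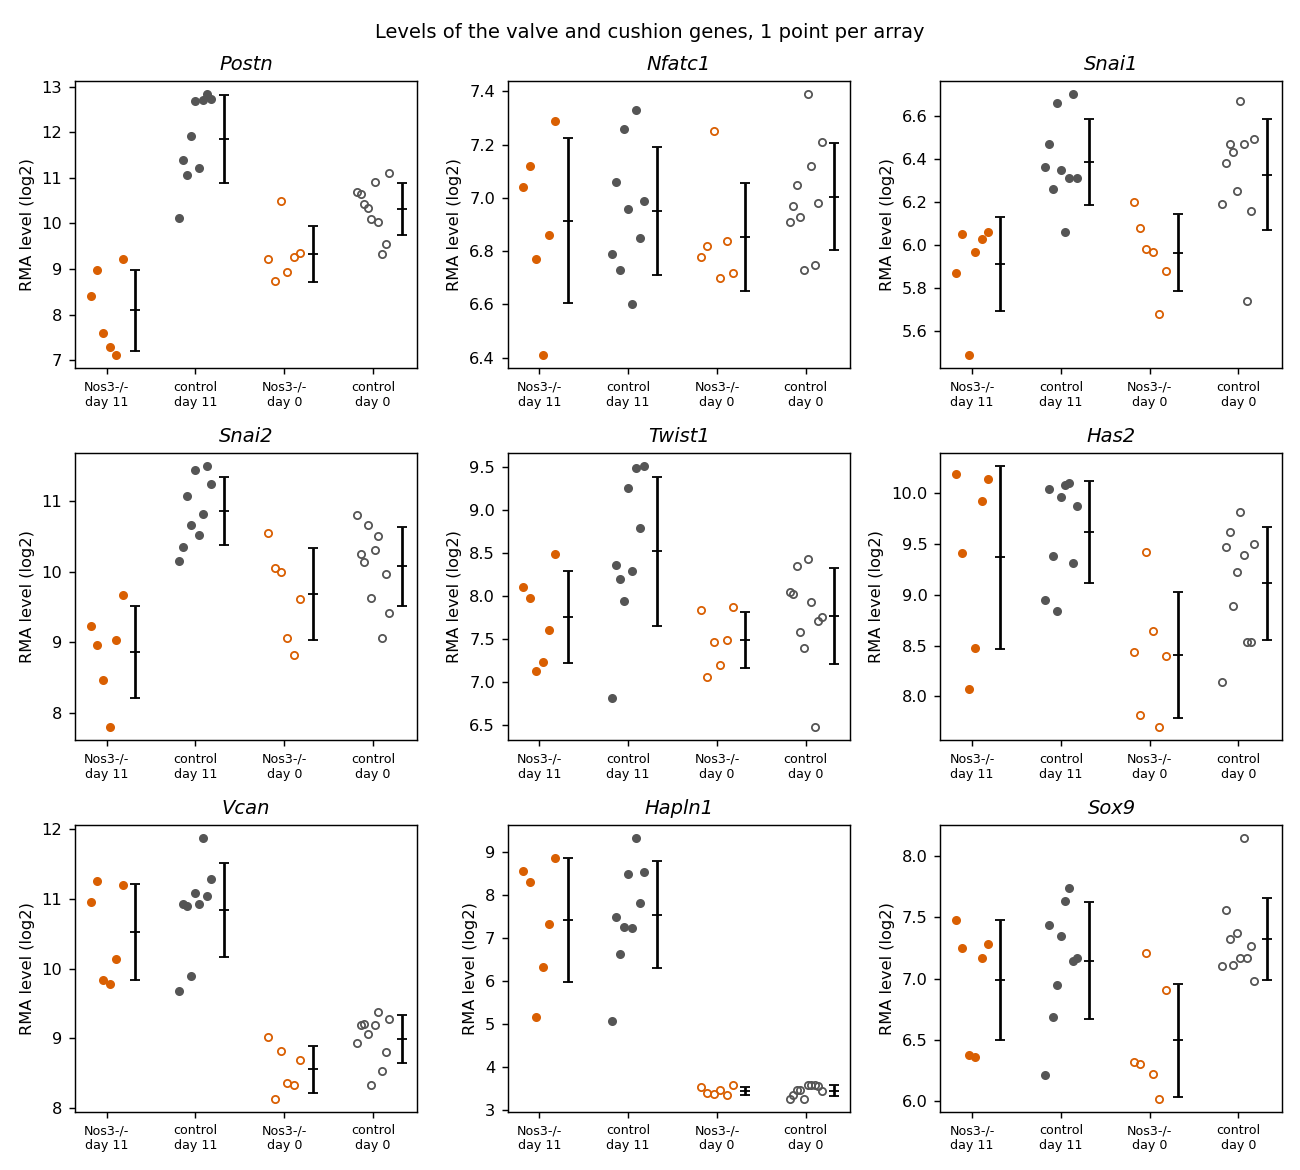
RMA level (log2) of each member, 1 point per array, in Nos3-/- (orange) and control (grey) samples at day 11 (filled) and day 0 (open); the dash and bar beside the points give the mean and SD (n = 6, 9, 6 and 10). Postn and Snai2 of Nos3-/- embryoid bodies lie below all control embryoid bodies, and Hapln1 and Vcan of both genotypes lie higher at day 11 than on any day 0 array.

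Nfatc1 (probe set 1417621_at; chromosome 18, 80606205 to 80713071, GRCm38.p6) encodes the calcineurin-dependent transcription factor that marks valve-forming endocardium. It ran from 6.41 through a median of 6.95 to 7.29 in Nos3-/- and from 6.60 through 6.96 to 7.33 in control embryoid bodies. In iPSCs it ran from 6.70 through 6.80 to 7.25 in Nos3-/- and from 6.73 through 6.975 to 7.39 in control cells. All 4 groups overlapped, no neighbouring group means differed by more than their SD, and none of the 5 comparisons was called. The genotype difference at day 11 was -0.04 (95% interval -0.29 to 0.21), and over differentiation the change was 0.06 in Nos3-/- and -0.05 in control cells. The gene has 5 probe sets, which disagree. In a fit over all probe sets, a dimmer one (1425761_a_at, r = 0.41 with the one used) was lower in Nos3-/- cells, with log2 changes of -0.38 at day 11 (adjusted p = 0.0236) and -0.35 at day 0 (adjusted p = 0.0295), and another (1428479_at) was lower at day 0 (-0.66, adjusted p = 0.0276). With the mean of the probe sets in place of the brightest, Nfatc1 was called lower in Nos3-/- iPSCs (-0.28, SE 0.08, adjusted p = 0.0216).

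Snai1 (1448742_at; chromosome 2, 167538195 to 167542814) encodes Snail, a zinc finger repressor of E-cadherin and an early switch of the mesenchymal transition. In embryoid bodies it spanned 5.49, 6.00 and 6.06 (lowest, median and highest) in Nos3-/- and 6.06, 6.35 and 6.70 in control samples. The highest Nos3-/- array and the lowest control array thus met at the same value. In iPSCs it spanned 5.68, 5.975 and 6.20 in Nos3-/- and 5.74, 6.405 and 6.67 in control cells, which overlapped. Snai1 was lower in Nos3-/- cells on both days, with log2 changes of -0.48 at day 11 (SE 0.11, adjusted p = 0.00579) and -0.36 at day 0 (SE 0.11, adjusted p = 0.0267). Over differentiation it moved by -0.05 in Nos3-/- and 0.06 in control cells, neither of them called. At day 0, leaving out Nos3-/- replicate 5 ended the call (adjusted p = 0.106), as did leaving out Nos3-/- replicate 6 (adjusted p = 0.0599), control replicate 6 (adjusted p = 0.0512) or the arrays that stand apart (adjusted p = 0.0801). The day 11 call held in all 31 omissions of 1 array. Snai1 has only 1 probe set, so no other could be compared. Its mean over the 31 arrays was 6.19, and 35.4% of all genes had a mean at or below it. This level was not set against background.

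Of the 9 members, 5 have a promoter in the RefSeq table for GRCm38.p6 (Snai1, Twist1, Vcan, Hapln1 and Postn), as windows of 250 bases before and 50 after a transcription start. The Snai1 window (chr2:167537945-167538244, plus strand) is shown because it alone of these holds the E-box CAGGTG, in its reverse complement, which Snail proteins and other E-box factors are known to bind. Here and in the windows below, capitals mark CAGGTG or CACCTG and TATAAA or TTTATA.
Snai1: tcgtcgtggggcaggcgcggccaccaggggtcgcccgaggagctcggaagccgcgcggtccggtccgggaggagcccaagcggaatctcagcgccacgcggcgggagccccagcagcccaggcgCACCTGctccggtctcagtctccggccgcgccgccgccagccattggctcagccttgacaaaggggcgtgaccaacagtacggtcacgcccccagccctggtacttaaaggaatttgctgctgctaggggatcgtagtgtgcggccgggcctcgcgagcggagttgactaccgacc
The match begins at position -126 relative to the start. CAGGTG was searched on both strands and occurs in 20.2% of the 32851 mouse promoter windows of 300 bases in the table. The match is a description of these letters and not a shown binding site.

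Snai2 (1447643_x_at; chromosome 16, 14705852 to 14709395) encodes Slug, the second Snail family repressor of cushion mesenchyme. It spanned 7.81, 9.00 and 9.67 in Nos3-/- and 10.15, 10.81 and 11.49 in control embryoid bodies, with no overlap. In iPSCs it spanned 8.83, 9.805 and 10.55 in Nos3-/- and 9.06, 10.195 and 10.80 in control cells, which overlapped widely. At day 11 Snai2 was 3.98-fold lower in Nos3-/- samples (log2 change -1.99, SE 0.29, adjusted p = 1.50e-05), a call that no omission of an array ended. At day 0 the difference was -0.39 (95% interval -0.97 to 0.19) and did not pass.

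Over differentiation Snai2 fell by 0.82 in Nos3-/- cells (SE 0.32, adjusted p = 0.0476) and rose by 0.78 in control cells (SE 0.25, adjusted p = 0.0160), and the changes differed by -1.60 (SE 0.40, adjusted p = 0.0425). The control rise held in all 31 omissions of 1 array, with adjusted p up to 0.0365. The fall and the difference of the changes lay close to the threshold. The fall in Nos3-/- cells was lost in 18 of 31 omissions of 1 array (Nos3-/- day 11 replicates 2 to 5, control day 11 replicates 3, 4, 6, 7 and 9, Nos3-/- day 0 replicates 1, 2, 3 and 6, control day 0 replicates 2, 3, 6, 7 and 9), with adjusted p up to 0.139. The difference of the changes was lost in 16 (Nos3-/- day 11 replicates 1, 2, 4 and 5, control day 11 replicates 3, 5, 8 and 9, Nos3-/- day 0 replicates 1, 2 and 6, control day 0 replicates 2, 3, 6, 9 and 10), with adjusted p up to 0.0824. The other Snai2 probe set (1418673_at, r = 0.97 with the one used) changed by -1.80 at day 11 (adjusted p = 1.51e-05), by -1.05 over differentiation in Nos3-/- cells (adjusted p = 0.00732) and by -1.53 for the difference of the changes (adjusted p = 0.0414). Its change of 0.47 in control cells was not called (adjusted p = 0.116).

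Twist1 (1418733_at; chromosome 12, 33957671 to 33959831) encodes a bHLH factor of cushion mesenchyme that keeps these cells proliferating and undifferentiated. In embryoid bodies it spanned 7.13, 7.79 and 8.49 in Nos3-/- and 6.82, 8.36 and 9.51 in control samples. In iPSCs it spanned 7.06, 7.48 and 7.87 in Nos3-/- and 6.48, 7.845 and 8.43 in control cells, and no neighbouring group means differed by more than their SD. Twist1 rose by 0.75 over differentiation in control cells (SE 0.28, adjusted p = 0.0356), against 0.27 in Nos3-/- cells (adjusted p = 0.593), and the test of that difference did not pass (-0.48, adjusted p = 0.625). The control rise was lost without any one of control day 11 replicates 5, 7, 8 and 9 or control day 0 replicates 4, 5 and 8. The genotype difference at day 11, -0.76 (adjusted p = 0.139), was called only when control day 11 replicate 1, the lowest array, was left out (-0.97, adjusted p = 0.0201) or arrays were weighted (-0.89, adjusted p = 0.0150).

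Sox9 (1451538_at; chromosome 11, 112782210 to 112787757) encodes the HMG-box factor that valve progenitors share with cartilage and that drives proteoglycan matrix genes. In embryoid bodies it spanned 6.36, 7.21 and 7.48 in Nos3-/- and 6.21, 7.17 and 7.74 in control samples. In iPSCs it spanned 6.02, 6.31 and 7.21 in Nos3-/- and 6.98, 7.22 and 8.15 in control cells, so that the Nos3-/- median lay below every control array. Sox9 was 1.77-fold lower in Nos3-/- iPSCs (-0.82, SE 0.22, adjusted p = 0.00969), while at day 11 the difference was -0.16 (95% interval -0.61 to 0.29). The 2 differences were not shown to differ (0.66, SE 0.31, adjusted p = 0.266), except with array weights (0.86, adjusted p = 0.0431). Over differentiation the Sox9 estimate was 0.49 in Nos3-/- (adjusted p = 0.121) and -0.17 in control cells (adjusted p = 0.518), neither called, though the first was without Nos3-/- day 0 replicate 3 (0.63, adjusted p = 0.0433) and with array weights (0.76, adjusted p = 0.00589). A second probe set (1424950_at) was lower at day 0 (-0.74, adjusted p = 0.0150), and the third, which stayed at or under 5.16 on every array, moved by 0.04.

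Has2 (1449169_at; chromosome 15, 56665627 to 56694546) encodes hyaluronan synthase 2, which makes the bulk polysaccharide of the cushions. It spanned 8.07, 9.665 and 10.19 in Nos3-/- and 8.84, 9.87 and 10.10 in control embryoid bodies, and 7.70, 8.42 and 9.42 in Nos3-/- and 8.14, 9.305 and 9.81 in control iPSCs. All groups overlapped, with the Nos3-/- iPSCs lowest on average. Has2 rose by 0.97 in Nos3-/- cells (SE 0.35, adjusted p = 0.0345), against 0.50 in control cells (adjusted p = 0.166), with no called difference between these (0.46, adjusted p = 0.643). The rise in Nos3-/- cells was lost without any one of Nos3-/- day 11 replicates 1, 2, 5 and 6 or day 0 replicates 2, 5 and 6. On the second probe set (1418678_at) it was 0.56 (adjusted p = 0.194). The day 0 genotype difference of -0.71 (adjusted p = 0.118) was called without Nos3-/- day 0 replicate 3 (-0.91, adjusted p = 0.0365) and with array weights (-0.84, adjusted p = 0.0335).

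Vcan (1427256_at; chromosome 13, 89655309 to 89743027) encodes versican, the large proteoglycan that binds hyaluronan in the cardiac jelly. It spanned 9.78, 10.545 and 11.26 in Nos3-/- and 9.67, 10.93 and 11.88 in control embryoid bodies. In iPSCs it spanned 8.13, 8.515 and 9.02 in Nos3-/- and 8.33, 9.125 and 9.37 in control cells. Every day 11 array lay above every day 0 array, whereas the genotypes overlapped on both days. Vcan rose 3.93-fold in Nos3-/- (1.98, SE 0.29, adjusted p = 1.53e-05) and 3.62-fold in control cells (1.86, SE 0.23, adjusted p = 3.58e-07). The genotype difference was -0.32 at day 11 (95% interval -0.87 to 0.23) and -0.44 at day 0 (95% interval -0.97 to 0.10), and the changes over differentiation differed by 0.12 (95% interval -0.65 to 0.89). Of its 8 probe sets, the 3 brightest rose in both genotypes, by 1.44 to 1.98 in Nos3-/- and by 1.22 to 1.86 in control cells. The other 5 never exceeded 4.34 and moved by at most 0.08 in either direction, and with the mean of all 8 the rise was 0.66 in Nos3-/- (adjusted p = 0.000105) and 0.54 in control cells (adjusted p = 3.13e-05).

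Hapln1 (1438020_at; chromosome 13, 89540529 to 89611832) encodes the link protein that locks versican onto hyaluronan. Hapln1 spanned 5.17, 7.815 and 8.85 in Nos3-/- and 5.08, 7.49 and 9.33 in control embryoid bodies, the widest spread of any member at day 11. In iPSCs it lay between 3.35 and 3.58 in Nos3-/- and between 3.27 and 3.59 in control cells, near the low end of the table, whose values start at 2.32. On the log2 scale it rose by 3.97 in Nos3-/- (SE 0.51, adjusted p = 1.73e-06) and by 4.08 in control cells (SE 0.40, adjusted p = 4.00e-09), with no overlap between days. The day 0 level was not set against background, so no fold is given. Over the other alternatives the rise lay between 2.65 and 4.53 in Nos3-/- and between 2.87 and 4.51 in control cells, lowest with the mean of the 4 probe sets. Its genotype difference at day 11 was -0.12 (95% interval -1.07 to 0.82), an interval that leaves room for a difference of 1 log2 unit. All 4 probe sets correlated at 0.97 or more and rose in both genotypes, by 1.58 to 3.97 in Nos3-/- and by 2.12 to 4.08 in control cells.

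Hapln1 and Vcan are neighbours on opposite strands of chromosome 13, with 43476 bases and 0 annotated genes between them. This stretch lies between their 3' ends, and their transcription starts lie at the outer sides of the pair. Their start windows are shown because these genes rose together, Hapln1 from chr13:89540386-89540685 on the plus strand and Vcan from chr13:89742463-89742762 on the minus strand.
Hapln1: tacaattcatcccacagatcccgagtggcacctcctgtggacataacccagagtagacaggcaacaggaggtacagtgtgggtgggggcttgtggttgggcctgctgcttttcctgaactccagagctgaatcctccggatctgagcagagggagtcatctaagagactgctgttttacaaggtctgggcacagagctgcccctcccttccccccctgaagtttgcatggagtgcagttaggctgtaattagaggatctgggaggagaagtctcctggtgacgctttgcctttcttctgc
Vcan: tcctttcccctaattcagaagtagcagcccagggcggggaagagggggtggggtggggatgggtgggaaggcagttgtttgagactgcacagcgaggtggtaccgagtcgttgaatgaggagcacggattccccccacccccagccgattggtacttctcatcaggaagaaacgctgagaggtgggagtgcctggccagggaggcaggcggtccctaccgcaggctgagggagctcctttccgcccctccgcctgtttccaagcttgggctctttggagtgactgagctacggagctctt
Neither window holds CAGGTG or TATAAA. The wider E-box pattern CANNTG, which includes CAGGTG and occurs in 72.3% of windows, is found in the Vcan window at -179. The NFAT core GGAAAA, present in 23.4% of windows, is found in the Hapln1 window at -142. No shared match of the searched motifs was found.

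Postn (1423606_at, its only probe set; chromosome 3, 54359267 to 54391041) encodes periostin, a matricellular protein of maturing valve leaflets that also marks fibroblasts. It spanned 7.11, 7.995 and 9.21 in Nos3-/- and 10.12, 11.92 and 12.84 in control embryoid bodies, with a gap between the groups. In iPSCs it spanned 8.73, 9.25 and 10.5 in Nos3-/- and 9.32, 10.39 and 11.1 in control cells, which overlapped. The order of the means was control day 11, control day 0, Nos3-/- day 0 and Nos3-/- day 11, each step wider than the larger SD of the groups beside it.

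At day 11 Postn was 13.5-fold lower in Nos3-/- samples (-3.76, SE 0.39, adjusted p = 3.66e-08). Over differentiation it fell 2.37-fold in Nos3-/- cells (-1.25, SE 0.43, adjusted p = 0.0264) and rose 2.91-fold in control cells (1.54, SE 0.34, adjusted p = 0.000699). The changes differed by -2.79 (SE 0.55, adjusted p = 0.00965), which held in every omission of 1 array. The fall in Nos3-/- cells was lost without Nos3-/- day 0 replicate 3 (adjusted p = 0.0712), Nos3-/- day 11 replicate 4 (adjusted p = 0.0644) or replicate 5 (adjusted p = 0.0706), and without the arrays that stand apart (-0.82, adjusted p = 0.216). At day 0 the genotype difference of -0.97 (SE 0.38, adjusted p = 0.0781) was not called, but it was without Nos3-/- replicate 3 (-1.21, adjusted p = 0.0254), without control replicate 8 (-1.08, adjusted p = 0.0493), without the arrays that stand apart (-1.30, adjusted p = 0.0425), with array weights (-1.17, adjusted p = 0.0271) and when only day 0 arrays entered the model (adjusted p = 0.0309).

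RefSeq gives Postn more than 1 start, and the window chr3:54360857-54361156 (plus strand) is shown because it holds a TATA box.
Postn: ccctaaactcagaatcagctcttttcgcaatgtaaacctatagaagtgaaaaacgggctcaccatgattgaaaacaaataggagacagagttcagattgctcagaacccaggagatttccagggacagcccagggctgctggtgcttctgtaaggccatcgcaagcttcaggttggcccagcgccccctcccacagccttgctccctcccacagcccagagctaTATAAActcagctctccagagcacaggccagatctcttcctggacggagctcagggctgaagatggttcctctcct
TATAAA begins at position -26, and it occurs in 13.6% of all windows. The other Postn window and the Twist1 window hold the SOX core AACAAT (10.7% of windows), at -165 in Postn and at -190 in Twist1, and the Twist1 window also holds TATAAA at -126.

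**Figure D2:**
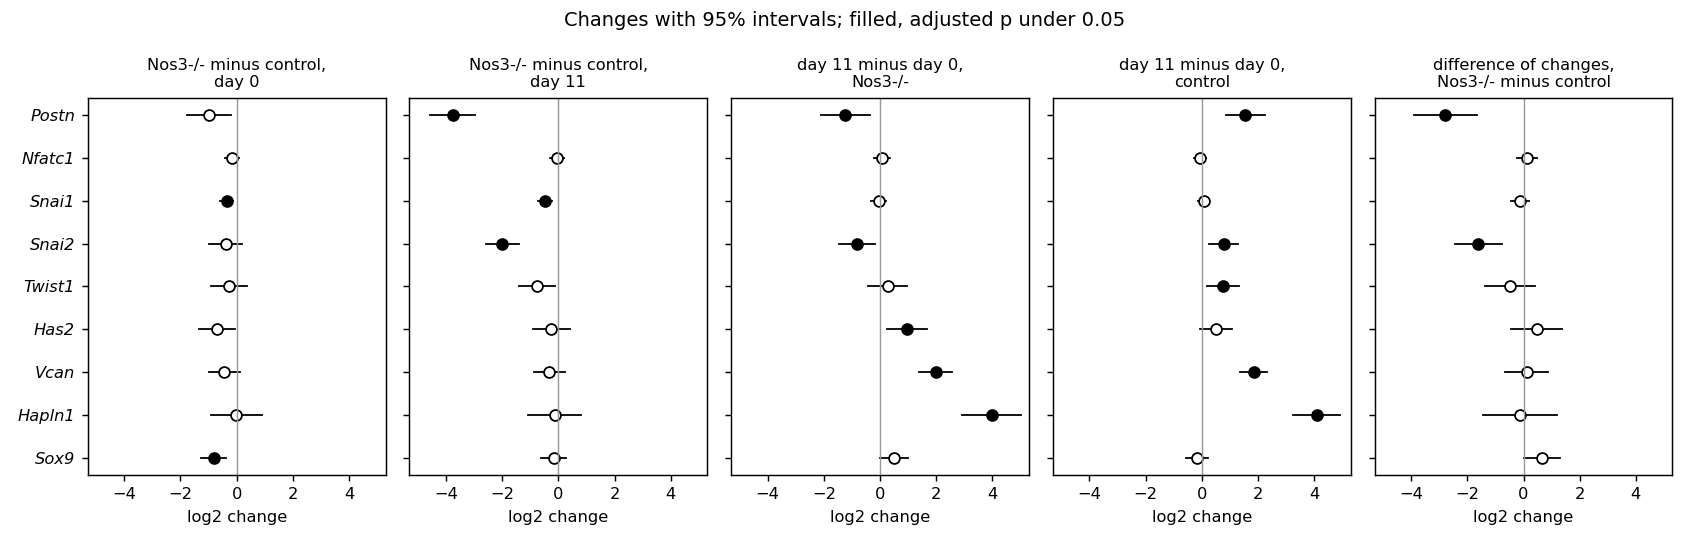
Log2 change of each member (points) with its 95% interval (lines) in the 5 comparisons; filled points passed an adjusted p under 0.05 and the grey line marks 0. At day 11 the Postn, Snai1 and Snai2 points are filled and lie left of 0, and over differentiation Postn and Snai2 lie left of 0 in Nos3-/- and right of 0 in control.

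In Nos3-/- against control embryoid bodies, 3 of the 9 members were called, all lower, where 9.7% of all genes were called and 5.29% were called lower. Members whose arrays did not overlap were Postn and Snai2, against 2.6% of all genes. All 9 estimates were negative, with a median of -0.32 beside 0.00 over all genes, of which 9074 of 18194 were negative. Of 119 measured genes in 6 lists of related valve and cushion genes, 5 rose and 30 fell, with a median of -0.20. Transcription factors made up 13 of those that fell and none of those that rose, among them Gata6 (-2.01, adjusted p = 0.00542) and Tbx20 (-1.99, adjusted p = 0.000997), which both act in cardiac and cushion development. Of 32 signals and receptors 5 fell, including Bmp4 (-1.10, adjusted p = 0.0315), a ligand of the outflow cushions, and Smad6 (-1.22, adjusted p = 0.000830), an inhibitor of BMP signalling. Adamts20 (-2.02, adjusted p = 9.72e-09) and Adamts9 (-1.49, adjusted p = 0.000941), proteases known to cleave versican, fell, as did the small proteoglycans Lum (-3.23, adjusted p = 0.000997) and Dcn (-1.55, adjusted p = 0.0408), whereas their relative Bgn rose (1.24, adjusted p = 0.00357). Among 17 matrix proteins 5 fell and 1 rose: Col1a1 fell by 2.91 (adjusted p = 6.70e-06) and Col3a1 fell by 1.53 (adjusted p = 0.0181), and Col2a1, the cartilage collagen, rose by 0.90 (adjusted p = 0.0223). The epithelial genes Epcam (0.47, adjusted p = 0.000492) and Cldn4 (0.87, adjusted p = 0.00982) rose, and Cdh11, the cadherin of mesenchyme, fell (-1.52, adjusted p = 0.0104).

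Over differentiation in Nos3-/- cells, 5 of 9 members were called, where 31.1% of all genes were, 13% higher and 18.1% lower: Has2, Vcan and Hapln1 rose and Postn and Snai2 fell. In control cells 5 were called, where 34.2% of all genes were, 16% higher: Snai2, Twist1, Vcan, Hapln1 and Postn rose. The median change of the members was 0.27 in Nos3-/- and 0.75 in control cells, beside -0.06 and -0.03 over all genes. Arrays of the days did not overlap for Vcan and Hapln1 in either genotype, against 7.83% of all genes in Nos3-/- and 6.52% in control cells. In the related lists 34 genes rose and 26 fell in Nos3-/- cells, and 35 rose and 35 fell in control cells, with medians of 0.02 and 0.04. Hand2, a factor of heart progenitors, rose by 2.77 in Nos3-/- (adjusted p = 0.000433) and by 4.27 in control cells (adjusted p = 9.42e-09). Tbx20 rose by 2.44 in Nos3-/- (adjusted p = 0.000142) and by 3.99 in control cells (adjusted p = 4.03e-10). Fbn2, a microfibril protein, rose by 3.76 in Nos3-/- (adjusted p = 1.46e-06) and by 2.70 in control cells (adjusted p = 1.84e-06). Prrx1, a mesenchymal homeobox factor, fell by 2.54 in Nos3-/- (adjusted p = 0.000584) and fell by 3.57 in control cells (adjusted p = 9.29e-08). Timp1, an inhibitor of metalloproteases, fell by 2.69 in Nos3-/- (adjusted p = 2.52e-08) and fell by 3.23 in control cells (adjusted p = 6.15e-13). The endothelial cadherin Cdh5 rose by 1.86 in Nos3-/- (adjusted p = 0.000276) and by 1.49 in control cells (adjusted p = 0.000121).

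For the difference between genotypes in these changes, 2 of 9 members were called, Postn and Snai2, both negative, where 1.24% of all genes were called and 0.715% were called negative. The member median was -0.12, beside -0.02 over all genes. Of the related genes 4 were called. Adamts20 (-1.94, adjusted p = 0.000262) and Hey2 (-1.47, adjusted p = 0.00874), a Notch target, had a more negative change in Nos3-/- than in control cells, and Bgn (1.91, adjusted p = 0.0149) and Cdh1 (0.64, adjusted p = 0.0406), which is E-cadherin, a more positive one. This comparison and those of each day and each genotype share their arrays, so the same values enter several of them.

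In Nos3-/- against control iPSCs, 2 of 9 members were called, Snai1 and Sox9, both lower, where 16.6% of all genes were called and 7.47% were called lower. No member had arrays without overlap, against 1.92% of all genes. All 9 estimates were negative, with a median of -0.39 beside 0.01 over all genes, of which 8741 of 18194 were negative. The Hapln1 estimate was only -0.0057, and its sign turned in 7 of 31 omissions of 1 array. In the related lists 2 genes rose and 27 fell, with a median of -0.35. Matrix proteins gave 10 of those that fell, of 17 measured, among them Fbn2 (-1.31, adjusted p = 0.0326) and Col1a1 (-1.26, adjusted p = 0.0269). Jag1, a Notch ligand (-1.30, adjusted p = 0.000139), Bmp2, the inducing signal of the atrioventricular cushion (-1.49, adjusted p = 0.0244), and Gata6 (-1.71, adjusted p = 0.0133) fell as well, and Snai3 rose (0.42, adjusted p = 0.00423).

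Fibroblast markers also changed in these comparisons, though not always in the direction of the members. Of 15 listed, 14 were measured, none of them a member and 5 of them also in a related list. Their mean level ran from 7.60 to 8.79 in Nos3-/- and from 8.55 to 9.72 in control embryoid bodies, and from 9.33 to 10.4 in Nos3-/- and from 9.77 to 11.1 in control iPSCs. In Nos3-/- against control samples 7 of the 14 fell and 2 rose at day 11, and 5 fell and none rose at day 0. Called or not, 11 of the 14 estimates were negative at day 11 (median -1.17) and all 14 at day 0 (median -0.63). Over differentiation 9 fell in Nos3-/- cells, and 7 fell and 2 rose in control cells. Their median change was -1.92 in Nos3-/- and -0.85 in control cells, where that of the members was 0.27 and 0.75. The lowest value of any fibroblast marker on any array was 3.61.

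When the mean fibroblast marker level entered the fit of the 15 day 11 arrays as a covariate, an alternative added after seeing the data, no member was called by limma: Postn differed by -2.38 (SE 0.61, adjusted p = 0.0757), Snai2 by -1.44 (SE 0.41, adjusted p = 0.119) and Snai1 by -0.44 (SE 0.18, adjusted p = 0.316). Among the same arrays without the covariate, Postn differed by -3.76 (SE 0.45, adjusted p = 7.10e-05) and Snai2 by -1.99 (adjusted p = 0.000199). With the covariate among the 16 day 0 arrays no member was called either, with Sox9 at -0.58 (adjusted p = 0.401) and Snai1 at -0.04 (adjusted p = 0.938). At an unadjusted p under 0.05 limma called 3 members at day 11 (Postn, Snai1 and Snai2) and 1 at day 0 (Sox9) with the covariate. Over all genes, the covariate fits called 250 at day 11 and 232 at day 0, against 1764 and 3029 in the main fit. The covariate fits used the arrays of 1 day and the main fit all 31, so these counts differ by more than the covariate. The fibroblast means of the genotypes overlapped little at day 11 (7.60 to 8.79 in Nos3-/- and 8.55 to 9.72 in control embryoid bodies). The day 11 fit therefore separates marker level from genotype poorly, and its lost calls do not show a part of fibroblast content. Within groups, the correlation of array deviations with the fibroblast mean over 31 arrays was 0.63 for Postn, 0.60 for Snai2, 0.65 for Twist1, 0.46 for Snai1 and 0.30 for Hapln1, given as a description. For Postn it was 0.61 with the cardiomyocyte, 0.57 with the smooth muscle and 0.52 with the endothelial marker mean. In the same order it was 0.57, 0.58 and 0.58 for Twist1. It was 0.34, 0.09 and 0.32 for Snai2 and 0.24, 0.44 and 0.27 for Snai1. Visceral endoderm markers also differed at day 11, with a mean of 6.98 in Nos3-/- and 9.60 in control embryoid bodies. Of these 7, 6 were called lower and all 7 estimates were negative (median -2.44). Cardiomyocyte markers had 1 of 12 called lower, with 11 of 12 estimates negative (median -0.67). Endothelial markers had 1 of 9 called lower, with 4 estimates negative and 5 positive (median 0.04). Over all 18194 genes, 962 were called lower and 9074 estimates were negative at day 11. Pluripotency markers had 5 of 9 higher and none lower in Nos3-/- against control embryoid bodies, with a median log2 change of 1.02. At day 11, 802 of all 18194 genes were called higher. In Nos3-/- against control iPSCs 2 of the same 9 were higher and none lower, 3 of 6 smooth muscle markers were lower and none higher, and 2 of 9 endothelial markers were higher and none lower. At day 0, 1669 of all 18194 genes were called higher and 1360 lower. The part of any of these marker lists in the member differences was not tested. No covariate fit was made for the changes over differentiation.

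**Figure D3:**
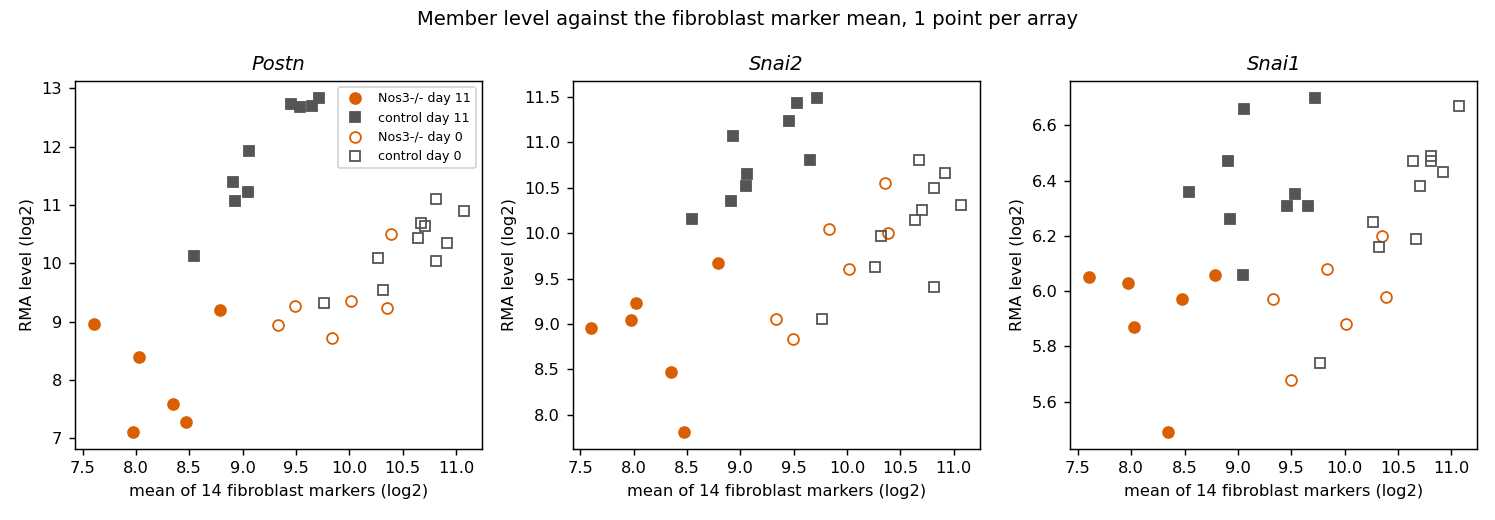
RMA level (log2) of Postn, Snai2 and Snai1 against the mean level of 14 fibroblast markers (log2), 1 point per array, circles for Nos3-/- and squares for control, filled at day 11 and open at day 0. Nos3-/- embryoid bodies have fibroblast means of 7.60 to 8.79 and Postn of 7.11 to 9.21, and control embryoid bodies 8.55 to 9.72 and 10.12 to 12.84.

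Within the day 11 groups, arrays that were high in a member tended to be high in others. Of 36 pairs of members, all 36 correlated positively over the 6 Nos3-/- arrays (median r 0.83) and 32 over the 9 control arrays (median r 0.54). Over all pairs of the 18194 genes, 50.7% correlated positively in Nos3-/- (median r 0.01) and 51.2% in control embryoid bodies (median r 0.01). Without the day 11 array of each genotype that stood apart, 34 of the 36 pairs were positive in Nos3-/- (median r 0.83, 5 arrays) and 27 in control embryoid bodies (median r 0.40, 8 arrays). The pairs share arrays and members, so they are not independent. Among these 72 correlations, 3 in Nos3-/- and 8 in control embryoid bodies passed Benjamini-Hochberg adjustment of an exact two-sided permutation test. Fewer passed by rho: Twist1 with Hapln1 in Nos3-/-, and in control Twist1 with Hapln1, Twist1 with Vcan, Vcan with Hapln1 and Has2 with Sox9. In control arrays, leaving out the 2 farthest from the Has2 median took r of Has2 and Vcan from 0.817 to 0.372. Leaving out the 2 farthest from the Hapln1 median took r of Hapln1 and Sox9 from 0.820 to 0.373. Twist1 and Hapln1 had r = 0.954 and rho = 1.0 in Nos3-/- (exact p = 0.00417, adjusted 0.0433) and r = 0.964 and rho = 0.933 in control embryoid bodies (exact p = 0.000110, adjusted 0.00397). Their rho had an exact p of 0.00278 in Nos3-/- and 0.000750 in control embryoid bodies. Without the 2 arrays farthest from the Twist1 median, r was 0.999 in Nos3-/- and 0.927 in control embryoid bodies.

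Vcan and Hapln1 had r = 0.910 and rho = 0.771 in Nos3-/- (exact p = 0.0208 for r, adjusted 0.0682, and 0.103 for rho) and r = 0.845 and rho = 0.95 in control embryoid bodies (exact p = 0.00532 for r, adjusted 0.0433, and 0.000353 for rho). Without the 2 arrays farthest from the Vcan median, r was 0.930 in Nos3-/- and 0.869 in control embryoid bodies. Control day 11 replicate 1, which stood apart, was the lowest control array in Postn, Snai2, Twist1, Vcan, Hapln1 and Sox9. Nos3-/- day 11 replicate 3, which also stood apart, was the lowest Nos3-/- array in Hapln1, Twist1, Has2 and Snai1. Hapln1 deviations from the group means correlated with those of the endothelial marker mean at 0.85 and of the cardiomyocyte marker mean at 0.82 over the 31 arrays. By level, the correlations were 0.90 and 0.83 over the 15 day 11 arrays. Over the 16 day 0 arrays, where Hapln1 was low and nearly constant, they were -0.01 and 0.02.

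**Figure D4:**
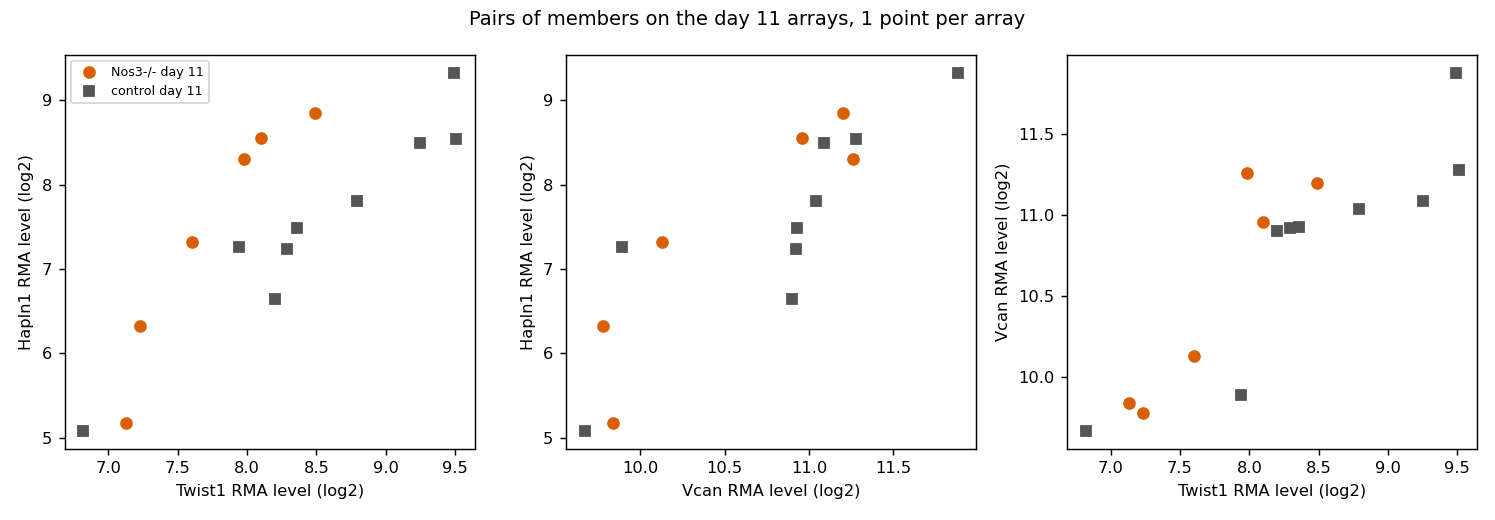
RMA levels (log2) of Twist1 and Hapln1, Vcan and Hapln1, and Twist1 and Vcan on the day 11 arrays, 1 point per array, circles for 6 Nos3-/- and squares for 9 control embryoid bodies. In each panel high values go together in both genotypes (r = 0.954 and 0.964 for Twist1 and Hapln1), and the lowest Hapln1 values are 5.17 in Nos3-/- and 5.08 in control embryoid bodies.

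The genes most like each member were sought among 8931 genes with a mean level above the median of all genes, as a description over the 31 arrays, which share their groups. By level, Postn was most like Col1a1 (r = 0.91), Snai2 like Ctso (0.88), Twist1 like Adam12 (0.89), Has2 like Chsy1 (0.89), Vcan like Dpysl2 (0.94), Hapln1 like Igdcc3 (0.97), Sox9 like Phc2 (0.83), Snai1 like Sirt2 (0.84) and Nfatc1 like Tom1l2 (0.64). By deviation from the group means the closest were Col3a1 for Postn (0.85), Rbms3 for Snai2 (0.86), Adam12 for Twist1 (0.89), Zfp703 for Has2 (0.87), Dpysl2 for Vcan (0.83), Kdr for Hapln1 (0.87), Smo for Sox9 (0.83), Chpf2 for Snai1 (0.78) and Slc25a4 for Nfatc1 (0.74). Col1a1 and Col3a1 are fibrillar collagens of fibroblasts, and Kdr is a receptor for VEGF on endothelial cells and their mesodermal precursors.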

How the data were processed

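RNA of 31 samples was hybridised to Affymetrix arrays. The authors deposited log2 values made with RMA, per the submitters' processing notes, and no software version, batch or scan date is given in the sources used here. Values run from 2.32 to 15.01 over 45101 probe sets, with 0 missing values and 0 identical arrays. The platform table gives 1 symbol to 34958 probe sets, several to 932 and none to 9211, and 34754 of the first matched a gene of GRCm38.p6. The brightest probe set on average stood for each of 18194 genes.

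The linear model of limma 3.58.1 (R 4.3.3) had 1 mean per group over all arrays (27 residual and 2.80 prior degrees of freedom). In it, 5 contrasts were tested with Benjamini-Hochberg adjustment over all genes. The fit was tested on simulated data. Members, lists and tests were chosen with earlier results of these data known. The 9 members are always named, then up to 2 called genes at either end of each related list per comparison, and the 2 genes most like each member by level and by deviation. The related genes printed are a part of those allowed, picked after their values were seen. Replicate numbers were checked for pairing. Alternatives were other normalizations, probe set rules, filters, variance models, array weights, array subsets, a replicate block, a fibroblast covariate and omissions of each array. Promoters came from RefSeq. Of the listed related genes, Hyal1, Fbn1 and Mmp15 had no probe set with a single symbol.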

Additional observations from a re-analysis of the deposited data

Results flagged for a closer look

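Single arrays lay far from the rest of their group in 5 of the 36 combinations of a member and a group, judged by the gap to the nearest array as a share of the range. Chance alone gives such a gap in about 1 in 20 groups. Postn was highest on Nos3-/- day 0 replicate 3 at 10.5, with the next array at 9.36, and Nfatc1 was highest on the same array at 7.25, with the next at 6.84. Snai1 was lowest on Nos3-/- day 11 replicate 3 at 5.49, with the next at 5.87. In control iPSCs, Twist1 was lowest on replicate 8 at 6.48, with the next at 7.39, and Sox9 was highest on replicate 7 at 8.15, with the next at 7.56. The 2 Nos3-/- arrays named here are among those that stand apart. On Nos3-/- day 0 replicate 3 the pluripotency marker mean was 9.84, below every other iPSC array. Has2 (9.42) and Sox9 (7.21) were also highest of the Nos3-/- iPSCs on this array.

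The change over differentiation differed between Nos3-/- and control cells for Postn, by -2.79 on the log2 scale (limma adjusted p = 0.00965), and for Snai2, by -1.60 (limma adjusted p = 0.0425). In both genes the change was negative in Nos3-/- and positive in control cells.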

How the results depend on the processing

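The day 11 calls of Postn, Snai2 and Snai1, the difference between genotypes in the Postn change and the rises of Vcan and Hapln1 held in each of the 31 omissions of 1 array and in each other alternative that measured the gene, except that the fibroblast covariate ended the 3 day 11 calls, with changes of -2.38 for Postn (SE 0.61), -1.44 for Snai2 (SE 0.41) and -0.44 for Snai1 (SE 0.18). With the mean of probe sets the rise of Vcan was 0.66 in Nos3-/- and 0.54 in control cells, and that of Hapln1 2.65 and 2.87, all still called, and Nfatc1 was called at day 0 (-0.28). Omitting 1 array gave 3 to 4 called members at day 11, 1 to 4 at day 0, 2 to 5 over differentiation in Nos3-/- and 4 to 5 in control cells, and 1 to 2 for the difference of these changes. Related genes called at day 0 were 11 to 44 and for the difference 3 to 7, and all genes called 1471 to 4142 and 88 to 745.

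The deviations of same-numbered samples correlated between -0.27 and 0.35 at day 0 and between -0.21 and 0.14 at day 11. Not every pair was over 0.1, in these or over differentiation, so the numbers were not taken to pair the samples. With the replicate number as a block, 1 member was called at day 0, where Snai1 was no longer called (-0.37, adjusted p = 0.0664), 3 over differentiation in Nos3-/- and 3 in control cells, and 1 for the difference of the changes, with 16 related genes at day 0 and 23 at day 11. Leaving out genes below the median level removed Nfatc1, Snai1, Hapln1 and Sox9, with 0 of the other members called by limma at day 0, and gave 1121 genes at day 11, 3756 over differentiation in Nos3-/- and 3835 in control cells. Array weights gave 4 members at day 0, Postn and Has2 among them, 3939 genes at day 11, and 13 related genes and 1590 genes for the difference. With only the arrays of the groups compared, Postn was called at day 0 (adjusted p = 0.0309), and 3 members and 3679 genes were called over differentiation in Nos3-/- cells. The fibroblast covariate left 0 members, 0 related genes (10 at an unadjusted p under 0.05 by limma) and 232 genes at day 0, and 0 members, 3 related genes and 250 genes at day 11. Leaving out the arrays that stand apart, added after seeing the data like the covariate at day 11, gave 2747 genes at day 11, 3 members over differentiation in Nos3-/- cells, and 1 member, 7 related genes and 523 genes for the difference. The cause was not tested in any of these.

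Signs turned only for member changes that were not called. At day 0, Hapln1 was 0.015 with median centring, 0.0431 with the mean of probe sets, 0.00286 with array weights, 0.28 with the block and 0.0277 without the arrays that stand apart. With the covariate at day 0, Nfatc1 was 0.0835, Snai2 0.40, Twist1 0.32, Vcan 0.0362 and Hapln1 0.00806. With the covariate at day 11, Nfatc1 was 0.0583, Twist1 0.39, Vcan 0.28, Hapln1 1.27 and Sox9 0.11. Also at day 11, Has2 was 0.0234 and Hapln1 0.0175 with array weights, and Hapln1 was 0.16 with the block and 0.02 without the arrays that stand apart, which also turned Snai1 over differentiation in Nos3-/- cells to 0.0193. Array weights turned Hapln1 to 0.015 for the difference of the changes. Omitting 1 array gave ranges across 0 for Hapln1 at day 0 (-0.031 to 0.015), and at day 11 for Nfatc1 (-0.11 to 0.0638), Has2 (-0.41 to 0.0136) and Hapln1 (-0.43 to 0.33). It did so over differentiation for Nfatc1 (-0.0117 to 0.16) and Snai1 (-0.11 to 0.031) in Nos3-/- cells, for Snai1 in control cells (-0.00333 to 0.10), and for Vcan (-0.0273 to 0.27) and Hapln1 (-0.42 to 0.33) in the difference. Signal over background was not analysed here, so a low level such as that of Hapln1 at day 0 was not set against background.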
